A study of Homo sapiens with 4 samples.

Results

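Of the KLF transcription factors, 6 carry a SIN3 interaction domain (SID) and are known to bind the second paired amphipathic helix domain (PAH2) of SIN3: KLF9, KLF10, KLF11, KLF13, KLF14 and KLF16. The regions with changed H3K4me3 at the promoters of these 6 genes, chosen by name out of 20176 protein-coding genes, were examined after Tat-SID treatment of MDA-MB-231, an established line of human triple-negative breast cancer. Tat-SID is a cell-permeable decoy peptide that joins the SID of MAD to a nuclear targeting stretch of the Tat protein and occupies PAH2. Native ChIP-Seq for H3K4me3 comprised 1 library each of untreated cells (labelled control), cells given 1 µM Tat-SID and cells given 2.5 µM Tat-SID, next to 1 library of input DNA. None of these libraries came from cells given a control peptide, so peptide delivery and SID competition cannot be told apart in these lists. The deposited files name regions that passed the threshold of the authors and hold neither reads nor fold changes. A region on a list therefore had less (or more) H3K4me3 than the same untreated library. A gene without a region may have had no mark, an unchanged mark or a change under the threshold, and the identity of the cells could not be checked from these lists. With 1 library per condition, no difference between conditions was tested.

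SIN3 is a scaffold without DNA binding of its own. It is brought to promoters by sequence-specific factors whose SID folds into PAH2, and it carries histone deacetylases and H3K4 demethylases with it. KLF proteins bind GC-rich sites, the GC box and the CACCC box, through zinc fingers at their C terminus, while the SID lies in the N-terminal part. Tat-SID competes at the same PAH2 surface that these KLF factors use. The H3K4me3 mark at their own genes is a different quantity: it sits around the TSS of transcribed genes and of CpG islands, and its reduction says nothing of the amount of KLF protein bound to SIN3.

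The bases just upstream of the gene start differed between KLF9 and the other SID-carrying KLF genes, and they are shown because KLF9 was the single gene of the 6 with a reduced region. The 200 bases before the gene start on GRCh37 are given 5′ to 3′ on the strand of the gene, with the GC box in capitals (GGGCGG, or CCGCCC for the opposite strand). They lie at chr9:73029574-73029773 for KLF9, chr2:10182776-10182975 for KLF11, chr15:31618838-31619037 for KLF13, chr7:130418968-130419167 for KLF14 and chr19:1863579-1863778 for KLF16. The genes on chromosomes 2 and 15 are on the plus strand and the other three on the minus strand.
KLF9: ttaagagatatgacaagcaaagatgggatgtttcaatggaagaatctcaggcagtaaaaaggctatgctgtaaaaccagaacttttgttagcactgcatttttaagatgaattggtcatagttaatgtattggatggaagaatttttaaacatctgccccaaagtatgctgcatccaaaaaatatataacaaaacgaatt
KLF11: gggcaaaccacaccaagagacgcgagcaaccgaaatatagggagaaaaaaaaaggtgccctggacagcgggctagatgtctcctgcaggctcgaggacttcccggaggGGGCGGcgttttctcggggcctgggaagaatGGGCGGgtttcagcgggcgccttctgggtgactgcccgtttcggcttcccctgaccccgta
KLF13: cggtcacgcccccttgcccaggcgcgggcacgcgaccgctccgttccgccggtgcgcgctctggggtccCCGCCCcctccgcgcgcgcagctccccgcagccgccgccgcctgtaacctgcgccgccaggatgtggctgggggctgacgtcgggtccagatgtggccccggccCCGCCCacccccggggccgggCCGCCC
KLF14: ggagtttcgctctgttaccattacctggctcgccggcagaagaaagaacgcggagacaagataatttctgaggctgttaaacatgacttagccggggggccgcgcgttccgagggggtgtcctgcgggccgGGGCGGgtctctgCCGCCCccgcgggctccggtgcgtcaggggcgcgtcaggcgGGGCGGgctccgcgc
KLF16: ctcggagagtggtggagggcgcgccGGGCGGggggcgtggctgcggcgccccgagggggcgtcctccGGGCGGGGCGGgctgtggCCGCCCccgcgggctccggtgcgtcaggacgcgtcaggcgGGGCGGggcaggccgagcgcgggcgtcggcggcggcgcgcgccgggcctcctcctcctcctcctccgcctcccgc
The KLF9 sequence held 0 GC boxes, 0 CACCC boxes (CACCC or GGGTG) and 1 CpG dinucleotide, and its GC content was 33.0%. The other four printed sequences held 2 to 5 GC boxes and 15 to 35 CpG dinucleotides, against a median of 12 CpG in the same window of 20084 protein-coding genes. The KLF10 sequence, which is not printed, held 2 GC boxes and 22 CpG. CACCC boxes numbered 0 at KLF16 too and 1 each at KLF10, KLF11, KLF13 and KLF14, so this count did not set KLF9 apart. A GC box was present in this window in 46.5% of all protein-coding genes and in 52.3% of those with a reduced region at 2.5 µM. The CACCC box was present in 49.8% and 46.5%, respectively. A reduced region counted here at any TSS, which need not be the gene start. No other annotated gene overlapped these bases at any of the 6 genes.

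KLF14 is known as an intronless copy of KLF16, and the upstream sequences of these genes shared a run of 29 identical bases, the longest of the 15 pairs in this window. It lies 57 to 29 bases before the gene start of KLF14 (chr7:130418996-130419024) and 116 to 88 bases before that of KLF16 (chr19:1863666-1863694), on the minus strand of both, and is shown because it is the stretch where reads of the pair are most alike.
Shared run of KLF14 and KLF16: gccgcccccgcgggctccggtgcgtcagg
The other pairs shared at most 11 bases upstream. Within 3 kb of the gene starts, read on the strand of each gene, the longest run of any pair was 43 bases, between KLF11 and KLF16. All these runs are shorter than the 100-base reads, so none alone filled a read.

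KLF9, also known as BTEB1, is a repressor and activator of GC-rich promoters that is induced by glucocorticoid and thyroid hormone. At 2.5 µM Tat-SID its gene start lay inside a region of reduced H3K4me3, and at 1 µM it did not. The KLF9 gene lies on chromosome 9 from 72999520 to 73029573 on the minus strand and has 1 annotated transcript with 2 exons. The region ran from 73024401 to 73030449, which is 6049 bp, and reached 876 bp beyond the gene start on the upstream side and 5172 bp into the gene. It held all 1799 bp of exon 1, with 505 of the 732 coding bases, and 3374 of the 24853 bp of intron 1. Exon 2 lay outside. The region covered 17.2% of the gene and 64.6% of the window of 3 kb on each side of the TSS. KLF9 was the only annotated gene of any kind with a TSS within 3 kb of it. The nearest region reduced at 1 µM lay 2.74 Mb upstream at ANXA1, which encodes the phospholipid-binding protein annexin A1, and 6 regions reduced at 1 µM lay on the whole of chromosome 9.

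The KLF9 region leaned towards the gene body. Over the 1119 regions reduced at 2.5 µM that covered the gene start of exactly 1 protein-coding gene, the median extent was 1391 bp upstream and 3546 bp downstream. The upstream extent at KLF9 was larger than in 22.3% of them and the downstream extent larger than in 83.0%. In length, the KLF9 region exceeded 72.2% of all 2063 reduced regions, whose median was 4949 bp. The CpG dinucleotides were placed alike. They numbered 0.7 per 100 bp in the 1 kb before the gene start, 6.3 in the first kb after it, 10 in the second kb and 1.83 from 2 to 5 kb, with the highest value, 20 in 100 bp, from 1000 to 1100 bp downstream. The CpG-rich stretch thus lay in exon 1 and the start of intron 1, and all of it lay inside the region. The GC content of the KLF9 region was 48.4%, next to a median of 45.1% over all regions reduced at 2.5 µM.

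**Figure D1:**
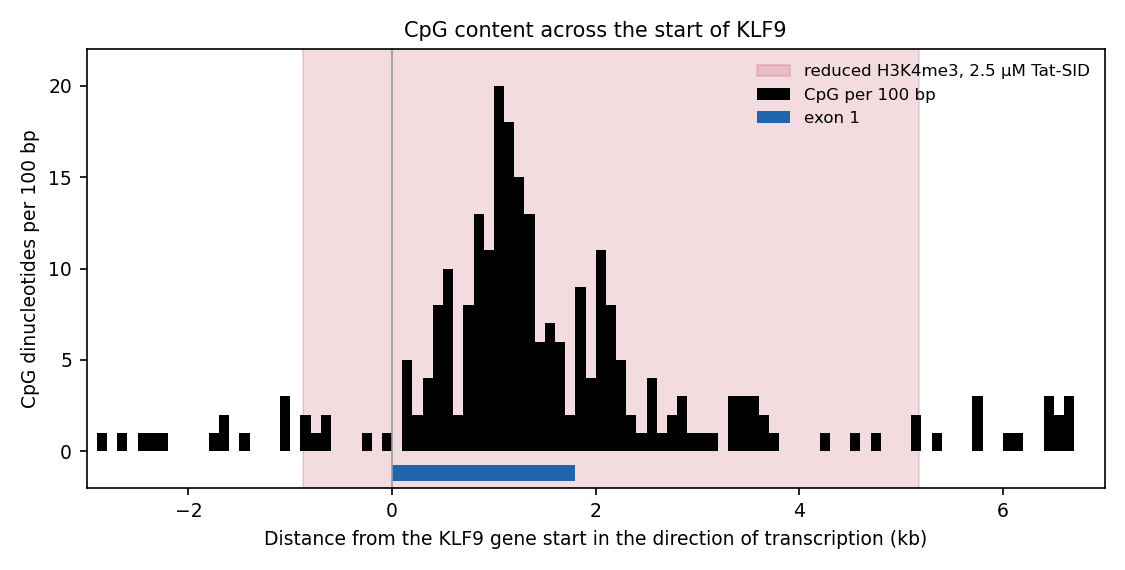
CpG dinucleotides per 100 bp (bars) are plotted against the distance from the KLF9 gene start in kb, in the direction of transcription, with exon 1 as a blue bar and the region reduced at 2.5 µM Tat-SID shaded. The bars rise to 20 per 100 bp at 1 kb downstream, and the shaded region extends 876 bp to the left of the gene start and 5172 bp to its right.

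Counted over the 6 SID-carrying KLF genes, 1 was called reduced at 2.5 µM (a region no more than 3 kb from one of its TSS), where 10.8% of the 20176 protein-coding genes did (2178 genes, exact Clopper-Pearson 95% confidence interval 10.4% to 11.2%, which covers counting error only). With 6 genes, 1 is the nearest whole number to the background share and is no result about the group. At 1 µM, 0 of the 6 had one, where 0.674% of protein-coding genes did. The list of increased regions at 2.5 µM held 3 regions, none on a chromosome that carries one of the 6 genes, and 0% of protein-coding genes had an increased region within 3 kb. For these counts, 3 kb was taken from the gene start and from the TSS of every annotated transcript.

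The TGF-β-inducible factors KLF10 and KLF11 (TIEG1 and TIEG2) are known to repress SMAD7 and so to prolong SMAD signalling. Neither had a reduced region at either dose. KLF10 lies on chromosome 8 from 103661012 to 103667953 and has 2 annotated TSS 1350 bp apart. Its nearest region at 2.5 µM was 204 kb upstream, from 103872251 to 103878049, at AZIN1, which encodes an inhibitor of antizyme, and at the long non-coding RNA gene MAILR. No start of another protein-coding gene lay between. At 1 µM the nearest region was 15.4 Mb away, at EXT1, a heparan sulfate polymerase gene. KLF11 lies on chromosome 2 from 10182976 to 10194963 with 5 annotated TSS over 1396 bp. It was the nearest to a region among the genes without one. The region, 75.5 kb downstream from 10259901 to 10265649, lay at RRM2, which encodes the small subunit of ribonucleotide reductase, with the start of 1 other protein-coding gene between. At 1 µM the nearest region was 45.1 Mb away, at RTN4.

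KLF13, KLF14 and KLF16 had no reduced region either. KLF13, known as an activator of CCL5 in T cells, lies on chromosome 15 from 31619038 to 31727868 and has 7 annotated TSS spread over 66740 bp. None was nearer than 697 kb to a region at 2.5 µM, the largest distance among the 6 genes, and that region, from 30915901 to 30921899, lay at ARHGAP11B. At 1 µM the nearest was 6.86 Mb away at SPRED1, a RAS-MAPK inhibitor gene. KLF14, known as an imprinted gene with effects on fat tissue, lies on chromosome 7 from 130415525 to 130418967 and has 1 annotated TSS. It stood 166 kb from a long region in the non-coding gene LINC-PINT that was on both lists. That region ran from 130585151 to 130603599 at 1 µM and to 130603299 at 2.5 µM, which is 18449 and 18149 bp. Both lists were made against the same untreated library. KLF16, known as a repressor at dopamine receptor promoters, lies on chromosome 19 from 1852398 to 1863578 with 3 annotated TSS over 721 bp. Its nearest region at 2.5 µM, from 2234951 to 2240799, was 371 kb away at SF3A2 and PLEKHJ1, with the starts of 10 other protein-coding genes between. Chromosome 19 had 0 regions reduced at 1 µM.

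**Figure D2:**
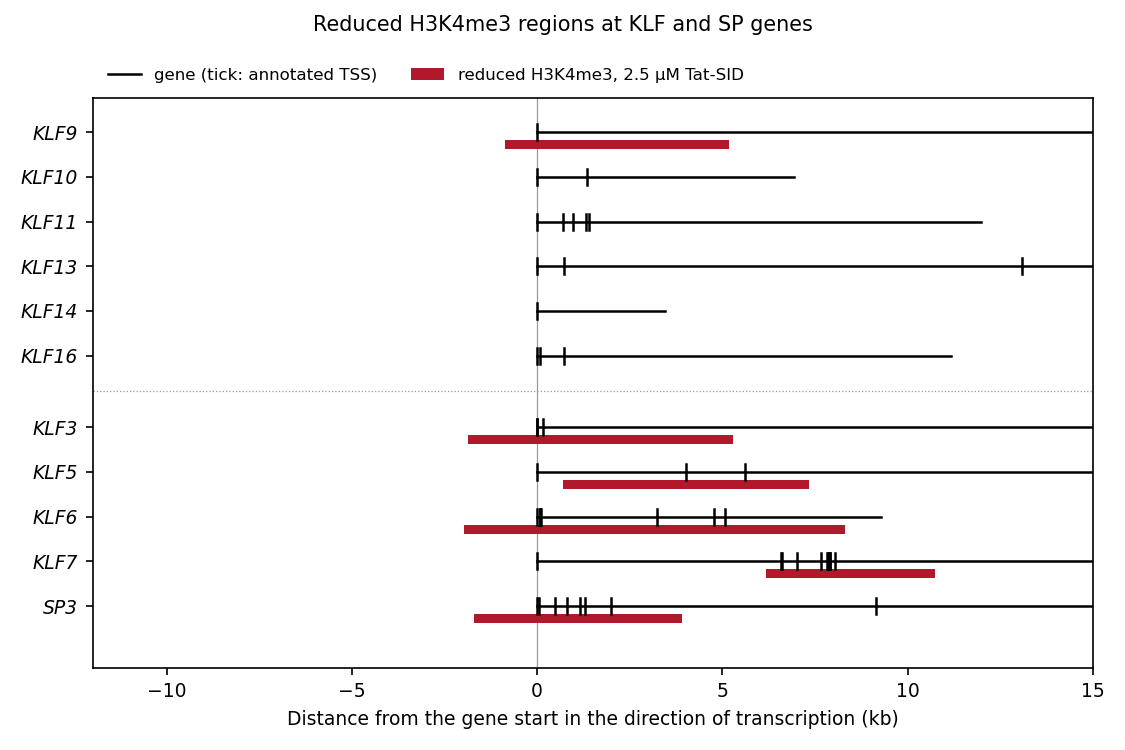
Each row is a gene aligned at its start, with distance in kb in the direction of transcription, a black line for the gene (drawn to 15 kb at most), ticks for annotated TSS and red bars for regions reduced at 2.5 µM Tat-SID. The 6 SID-carrying KLF genes are above the dotted line and the 5 other KLF and SP genes with a region are below it. Of the upper rows, only KLF9 has a bar, and no region reduced at 1 µM lies in the span drawn for any row.

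The distances lay within the range of other genes. At 2.5 µM the median distance of the 6 genes to the nearest region was 185.2 kb, and that of the 20098 protein-coding genes on a chromosome with a region was 379.9 kb. Of those genes, 21.0% were nearer to a region than KLF11, 31.9% than KLF14, 36.0% than KLF10, 49.4% than KLF16 and 65.4% than KLF13. At 1 µM the median was 6856 kb for the 5 genes on a chromosome with a region and 7948 kb for 17041 protein-coding genes. KLF14 was the nearest of the 5, with 2.19% of genes nearer, and KLF11 the farthest, with 95.6% nearer.

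**Figure D3:**
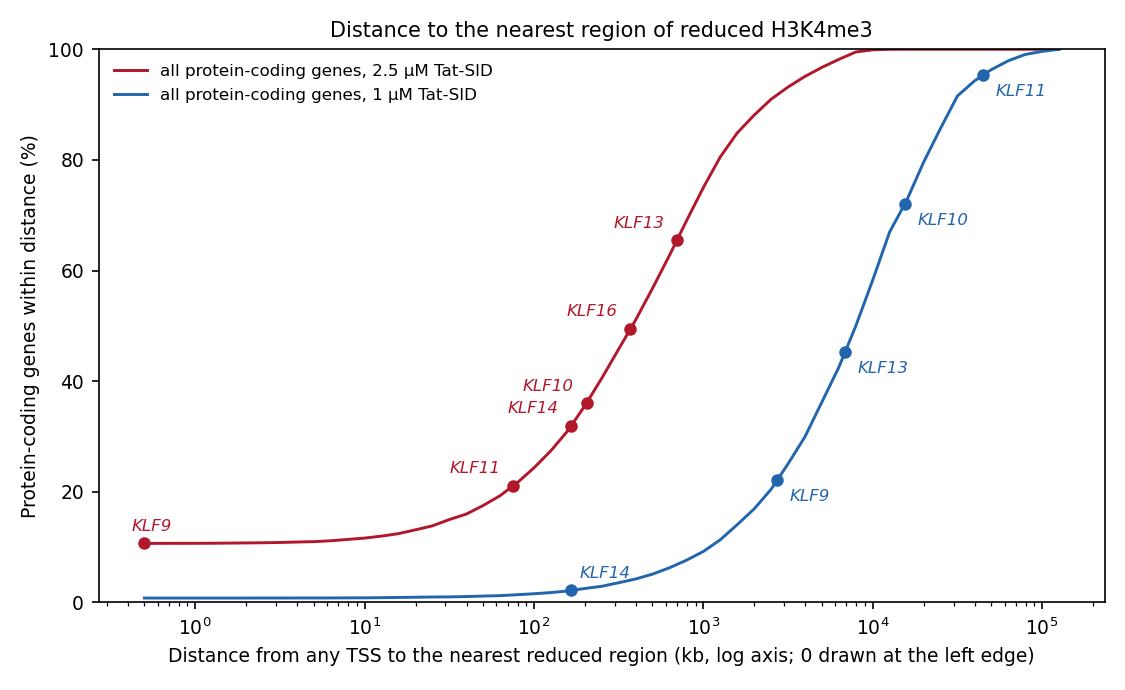
The curves give the share of protein-coding genes (%) whose nearest reduced region lies within the distance on the x axis (kb, log axis), at 2.5 µM (red) and 1 µM (blue) Tat-SID, and the points mark the SID-carrying KLF genes. At 2.5 µM KLF9 is at 0 kb and the other five at 75.5 to 697 kb. At 1 µM KLF14 is at 166 kb and the others at 2.74 Mb or more, with KLF16 not drawn because chromosome 19 had no region.

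Reduced genes within 1 Mb of each of these genes were counted at 2.5 µM, next to the 10.8% of all protein-coding genes. Neighbours that share a region count separately. The regions themselves numbered 2 around KLF9 (its own included), 2 around KLF10, 3 around KLF11, 1 around KLF13, 4 around KLF14 and 1 around KLF16. The counts are small, and a difference between the surroundings was not tested. Within 1 Mb of KLF9, 1 of 5 protein-coding genes had a reduced region at 2.5 µM, SMC5, which encodes a structural maintenance of chromosomes protein. Around KLF10 it was 4 of 14, around KLF11 2 of 16 (ODC1, of polyamine synthesis, and RRM2), around KLF13 2 of 11 and around KLF14 2 of 15 (KLHDC10 and MKLN1). Around KLF16, in the gene-dense end of chromosome 19, it was 2 of 71. At 1 µM none of these neighbours had a reduced region. Over whole chromosomes, the share of protein-coding genes with a reduced region at 2.5 µM was 2.91% on chromosome 19 (43 of 1480) and 9.01% to 13.6% on the other five.

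The GC content within 1 kb of the gene start was lower at KLF9 than at the other 5 SID-carrying KLF genes, though not the lowest of the KLF family. In the window of 1 kb on each side it was 45.7% at KLF9, 59.9% at KLF14, 66.6% at KLF11, 69.2% at KLF10, 77.1% at KLF13 and 78.3% at KLF16, next to a median of 55.0% over 20084 protein-coding genes. Only 9 genes were higher than KLF16 and 19 higher than KLF13, while 16.6% were lower than KLF9. At KLF9 this window stops where its densest CpG stretch begins. The GC content was 85% from 1000 to 1100 bp downstream, and the second kb held 10 CpG per 100 bp against 6.3 in the first. The low values at KLF9 therefore describe this window and not the whole CpG-rich stretch. Among the other KLF genes, KLF5 (34.2%) and KLF7 (36.5%), both with a reduced region at 2.5 µM, were lower than KLF9. KLF3, also with one, was at 75.2%. The KLF7 region began 6181 bp downstream of the gene start, outside this window. The KLF5 region began 687 bp downstream, so only its first part lay inside. The GC values of KLF5 and KLF7 therefore describe the gene start and not the sequence under their regions. The ratio of observed to expected CpG was 0.68 at KLF9 and 0.699 to 1.04 at the other five, with a median of 0.612 over all genes. The GC box was absent from this window at KLF9 and occurred 10 times at KLF10, 21 times at KLF11, 15 times at KLF13, 11 times at KLF14 and 24 times at KLF16, with a median of 3 over all genes. The CACCC box occurred 5 to 12 times, with a median of 6. When protein-coding genes were ranked by GC content in 10 equal classes, the share with a reduced region at 2.5 µM ranged from 5.78% in the highest class, which holds KLF10, KLF11, KLF13 and KLF16, to 14.1% in class 4. It was 11.7% in class 2, which holds KLF9, and 11.5% in class 8, which holds KLF14. The part of GC content in the calls was not tested. GC content and CpG ratio were taken at the gene start, while a region counted at any TSS. A gene called only at an internal TSS was thus classed by the sequence of another promoter. Median GC content was 54.0% in genes with a reduced region and 55.1% in those without. The median CpG ratio was 0.727 and 0.593, respectively, and it was 0.922 in the 5 SID-carrying KLF genes without a region.

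**Figure D4:**
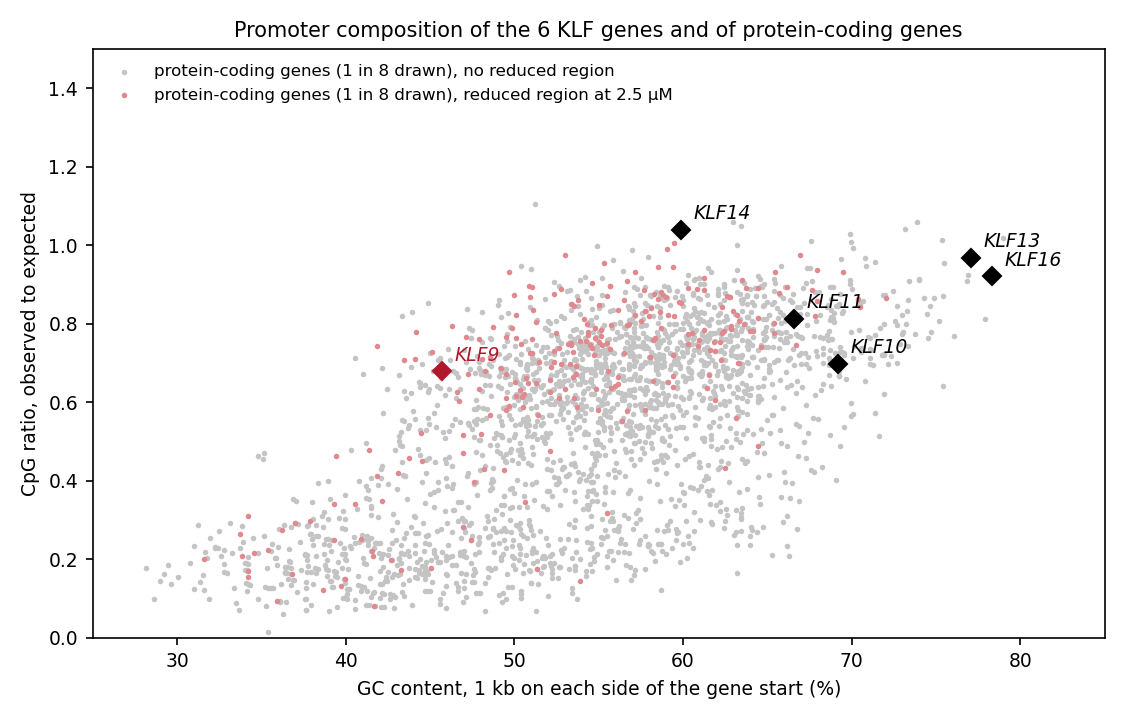
The observed to expected CpG ratio is plotted against GC content (%) in the window of 1 kb on each side of the gene start, for 1 in 8 protein-coding genes (dots, pink with and grey without a region reduced at 2.5 µM) and for the 6 SID-carrying KLF genes (diamonds, red for KLF9). KLF9 lies at 45.7% GC and the others lie between 59.9% and 78.3%. A region counted at any TSS, which need not be the gene start.

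The KLF and SP factors share the zinc fingers but, apart from the 6 above, are not grouped here by SIN3 binding. Among the 12 other KLF genes 4 had a reduced region at 2.5 µM, and among the 9 SP genes 1 did, which together is 5 of 21 (23.8%), next to the 10.8% of all protein-coding genes. None of the 21 had one at 1 µM. The region at KLF6, a damage-induced factor, was the longest at 10299 bp and took in 1976 bp before the gene start and 8322 bp after it, and an unnamed gene also had a TSS no more than 3 kb from it. KLF3, a repressor that works through CtBP, had 7149 bp, of which 1867 bp lay before the gene start, in a region shared with its antisense gene KLF3-AS1. At SP3, a ubiquitous GC-box factor, the region was 5599 bp, with 1698 bp before the gene start and 3900 bp after it, and 2 unnamed genes also had a TSS no more than 3 kb from it. KLF5, a factor of proliferating epithelium, had 6649 bp that began 687 bp downstream of the gene start and covered internal TSS. The KLF7 region of 4549 bp began 6181 bp downstream of the gene start, over internal TSS and next to the start of the non-coding gene MYOSLID, and KLF7 was not counted when the gene start alone was used, which left 4 of 21. By the same call at both doses and the nearest region length, SP3 and then KLF5, with 5599 and 6649 bp next to 6049 bp, were most like KLF9 among these 5 genes.

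Other factors with a SID compete for the same domain. Of 8 such genes, 2 (25.0%) had a reduced region at 2.5 µM, next to 10.8% of protein-coding genes. HBP1, which encodes an HMG-box repressor of cell cycle genes, had 4699 bp across its gene start on chromosome 7, and TGIF1, which encodes a TALE homeodomain repressor of SMAD signalling, had 9949 bp that lay 34.6 kb downstream of the gene start over internal TSS. By gene start alone it was 1 of 8. The other 6 were MXD1, MXI1, MXD3, MXD4, MNT and PHF12, which encodes PF1, and their nearest region was 12.4 kb (MXD4) to 1310 kb (MXD3) away. At 1 µM 0 of the 8 had a region, next to 0.674% of protein-coding genes.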

How the data were processed

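The authors sequenced native H3K4me3 ChIP and input libraries on a HiSeq 2500, checked the 100-base single-end reads with FastQC (version 0.10.0), aligned them to hg19 (GRCh37) with Bowtie (version 1.0.0) and compared each treated library with the untreated one in SICER-df to find changed regions. The SICER version is not given in the sources used here. The deposited lists hold chromosome, start and end, with no value per region and no depth. Their names carry a q threshold of 1e-15, the one used in the study's results. The methods section gives a less strict one. The methods report alignments for reads with several matches, so reads from near-identical copies may be placed at one of them.

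Positions were printed from 1 and set against GENCODE release 44 on GRCh37 (20176 protein-coding genes). The promoter criterion was a region no more than 3 kb from the gene start or the TSS of any transcript. Distances run from a TSS to the nearest region edge. GC content and CpG ratio, observed CpG over those expected from C and G content, were taken from windows reaching 1 kb either way from the gene start for 20084 genes on the autosomes and X without unknown bases. The search was tested on simulated data with 200 planted regions, all 200 found. The members and lists were chosen with earlier results of these data known. The genes named were the 6 members, genes at their regions or nearest regions, and genes with a region in 5 lists: other KLF, SP, other SID genes, SIN3 complex genes and known targets of a member. Reduced neighbours within 1 Mb of a member (SMC5, ODC1, KLHDC10, MKLN1) and list genes without a region fell outside this rule and were named after their values were seen. Alternatives to the window, the TSS, the regions and the promoter width were tried. No test between conditions was made. Software was pysam 0.24.0, scipy 1.17.1, numpy 2.4.6 and matplotlib 3.10.9 under Python 3.11.15.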

Additional observations from a re-analysis of the deposited data

How the results depend on the processing

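The counts of 1 of 6 genes at 2.5 µM (KLF9 in each case) and 0 of 6 at 1 µM were the same under all 6 alternatives: a window of 10 kb, the TSS base alone, gene starts only, TSS of protein-coding transcripts only, regions of at least 1000 bp and merging within 3000 bp. The background share moved outside its 95% confidence interval with gene starts only, to 0.496% at 1 µM and 9.50% at 2.5 µM, where fewer TSS are counted, and with a window of 10 kb at 2.5 µM, to 11.6%. The count of other KLF and SP genes was 4 with gene starts only and 5 under the other alternatives. Measured to the midpoint of the region, KLF9 was 2.148 kb away, and the median distance of the 6 genes at 2.5 µM was 191.2 kb. Without a value for each region, a stricter threshold could not be run. No paired analysis was possible because each group held 1 library and nothing was tested across groups. The region lists give no depth, so here the longer list at 2.5 µM cannot be divided into dose and depth.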

Other observations

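Among 19 genes of the SIN3 complex and the H3K4 demethylases linked to it, 5 (26.3%) met the promoter criterion for reduced H3K4me3 at 2.5 µM and 1 at 1 µM, next to 10.8% and 0.674% of protein-coding genes. SAP30, which encodes a SIN3-associated subunit, was on both lists, with 7499 bp at 1 µM and 7199 bp at 2.5 µM across its gene start on chromosome 4. SIN3A itself had a region of 7849 bp at 2.5 µM, with 1316 bp before its gene start and 6532 bp after it. ARID4A and ARID4B, which encode chromodomain subunits, and KDM5A, an H3K4 demethylase gene, had 5199, 6949 and 4899 bp. Each of these 5 regions also met the criterion for a neighbouring gene (SAP30-DT at SAP30, an unnamed gene at SIN3A, ARMH4 and PSMA3-AS1 at ARID4A, GGPS1 and an unnamed gene at ARID4B, CCDC77 at KDM5A), so the promoter it belongs to cannot be told apart. SIN3B and KDM5B had none, with the nearest region 167 kb and 1600 kb away.

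Of 6 genes known as targets of the SID-carrying KLF factors, 1 had a reduced region, at both doses, next to 10.8% of protein-coding genes at 2.5 µM and 0.674% at 1 µM. At 2.5 µM, 1 is the nearest whole number to that background share. It was TGFBR2, the type II TGF-β receptor gene and a known target of KLF14 repression, with 10099 bp at 1 µM and 9599 bp at 2.5 µM from the same start at 30646551 on chromosome 3. No other annotated gene had a TSS within 3 kb of the 2.5 µM region. SMAD7, CYP1A1, MAOB, CCL5 and DRD2 had none, at distances of 289 kb (CCL5) to 989 kb (MAOB) at 2.5 µM. Both lists were made against the same untreated library.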
